A study of Mus musculus with 5 samples.

Results

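The mouse kidney bud transplant recovered after 4 weeks was compared with the transplant recovered after 2 weeks, gene by gene, on 1 single-colour microarray each. Genes entered where their probe was well above background on either array, and 18485 of the 24549 genes named on the array did so. Of these, 17018 were well above background on both arrays, 696 at 4 weeks only and 771 at 2 weeks only. The labels give C57BL/6 as the strain of every sample and no treatment. What the buds consisted of, where they were placed, how many animals were used and of which sex is not given in the sources used here. Kidneys of the same strain at E13.5, at birth (P0) and at 8 weeks of age, with 1 array each, serve as points of orientation. The study's stated interest was expression related to development in the transplants and in kidneys of the mouse.

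A grafted organ bud carries the precursors of nephrons, the filtering and reabsorbing units of the kidney, together with connective tissue and vessels. Nephrons mature from progenitor cells that are used up, and maturing segments are known by their transporters and channels. Tissue recovered from a graft site can also hold host tissue or cells that took another path, so the genes were read by tissue as well as by function. Kidney markers were well above background on both transplant arrays, among them Nphs1 of the podocyte slit diaphragm, Umod of the loop of Henle and Slc34a1 of the proximal tubule.

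Levels are given as log2 of the intensity relative to the array's 75th percentile, so that a level of 0 is the signal at that percentile and 1 unit is a 2-fold step. Differences are 4 weeks minus 2 weeks, and a positive one means higher at 4 weeks. With 1 array per group there is no replicate error, no p-value and no test, and each value describes these 2 arrays. Where a probe was not well above background on 1 array, the fold is a bound against the lowest signal counted there, written "at least". Probes printed more than once gave a median SD between spots of 0.0541 at 4 weeks and 0.0517 at 2 weeks (log2), which covers spot error alone. The 4-week array lay on slide 2 and the 2-week array on slide 1, so slide and graft time cannot be told apart. Of the 8 spike-in probes well above background, 7 differed by -0.15 to 0.10 after scaling, and the dimmest by 0.85.

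Most genes lay close together at the 2 times. The median difference of all 18485 genes was -0.00 and the middle 50% lay between -0.32 and 0.36, with 85.2% of genes within 2-fold. At least 2-fold higher at 4 weeks were 1681 genes (9.09%), and at least 2-fold lower were 1050 (5.68%). At least 4-fold higher were 451 genes (2.44%) and lower 188 (1.02%), of which 145 and 55 are bounds. At 16-fold the split was 76 higher and 15 lower. In the authors' deposited table, whose values carry no percentile scaling, the median difference was -0.19 and the split became 1475 higher and 1718 lower at 2-fold, and 543 and 367 at 4-fold. The percentages above are the background against which the counts of each tissue or function list are to be read.

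**Figure D1:**
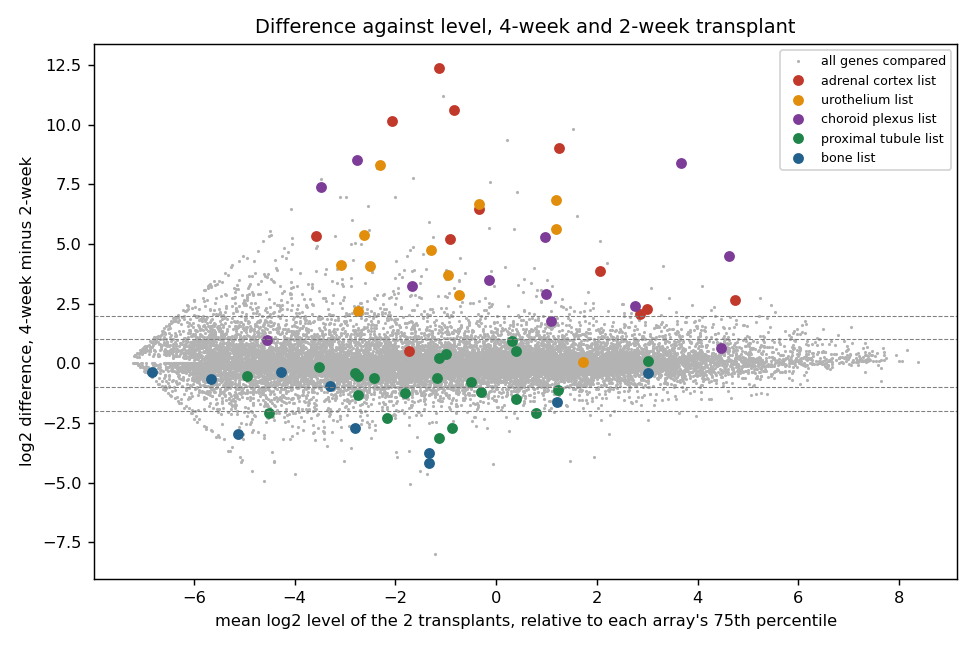
Each grey point is 1 of the 18485 genes compared, with its mean log2 level over the 2 transplants on the horizontal axis and its log2 difference, 4 weeks minus 2 weeks, on the vertical axis. Dashed lines mark 2-fold and 4-fold, and coloured points are the members of 5 gene lists. The adrenal cortex, urothelium and choroid plexus lists reach differences of 12.36, 8.29 and 8.52, and the bone list reaches -4.18. Genes with a bound are drawn at their bound.

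Of 61 lists of tissue markers and functions, with 635 entries compared, 14 had a median difference of 1 or more and 4 a median of -1 or less. Highest were the adrenal cortex, urothelium, adrenal zones and choroid plexus lists. Lowest were cartilage, bone, distal tubule and Wnt signalling. In bulk tissue, more cells of a type and more RNA per cell cannot be told apart, which holds for every list below.

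**Figure D2:**
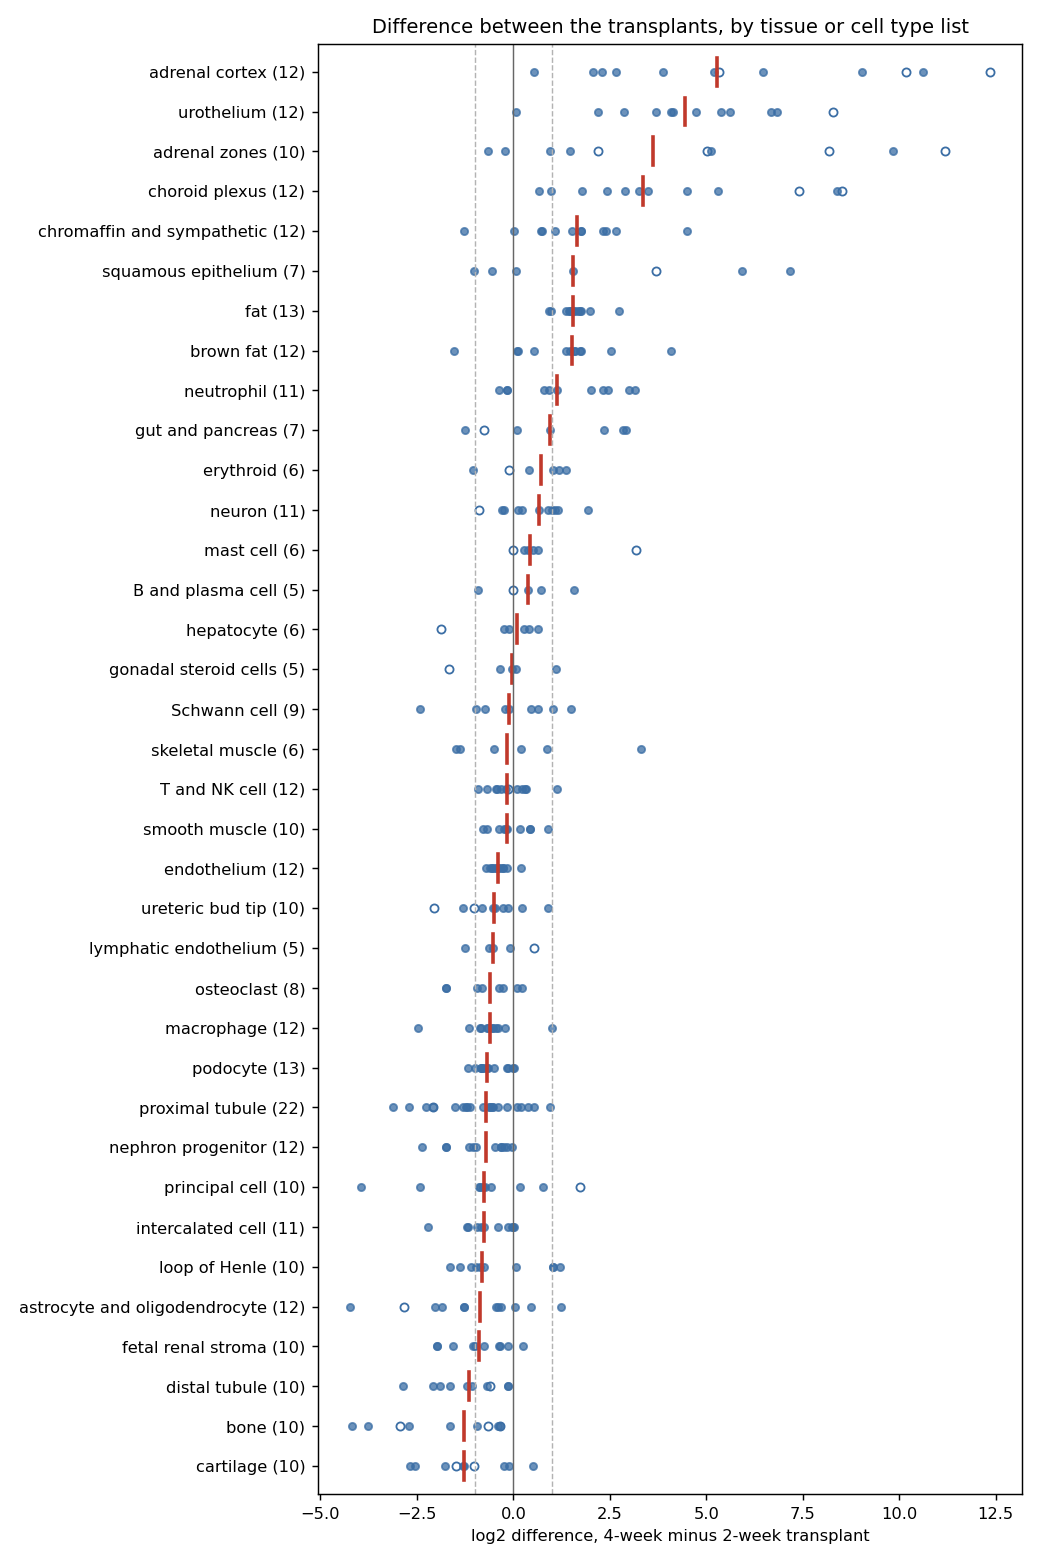
Each row is 1 list of tissue or cell type markers with the number of genes compared in brackets, each point is 1 gene's log2 difference, 4 weeks minus 2 weeks, and the red bar is the list's median. Open points are bounds, and dashed lines mark 2-fold. The adrenal cortex (median 5.26), urothelium (4.44), adrenal zones (3.60) and choroid plexus (3.36) lists stand at the top, the adrenal zones list with a median of 1.22 where only genes above background on both arrays are kept, and bone and cartilage (-1.29 each) at the bottom.

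Genes of the adrenal cortex, the gland layer that turns cholesterol into corticosteroids, had the largest differences on the array. In this tissue Star carries cholesterol into mitochondria, Cyp11a1 cuts its side chain, Hsd3b1, Cyp21a1 and Cyp11b1 carry out later steps, and the nuclear receptors Nr5a1 and Nr0b1 regulate the pathway. Of the 12 genes of the adrenal cortex list, 11 were at least 4-fold higher at 4 weeks, 0 were lower, and the median difference was 5.26. The summed intensity of the 12 probes was 438119 at 4 weeks and 33151 at 2 weeks, and between 20957 and 54283 in the 3 kidneys.

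Star had a level of 4.47 at 4 weeks, against -6.15 at 2 weeks and -5.81, -5.58 and -5.62 in the E13.5, P0 and 8-week kidneys. Its signal at 2 weeks was 24.1, next to the lowest signal counted as above background on that array, 23.5, so its difference of 10.62 has a denominator near that floor. In the 8-week kidney it was not well above background. Cyp21a1 had 5.77 at 4 weeks and -3.27 at 2 weeks, and -3.05 to -2.99 in the kidneys. The 4-week array thus stood apart from the other 4 for both genes. Cyp11a1 had 3.98 at 4 weeks and was not well above background on any other array, an at least 1148-fold difference. Hsd3b1 had 6.17 at 4 weeks and was not well above background at 2 weeks or at P0, with a difference of at least 12.36, while the E13.5 and 8-week kidneys had -4.62 and -4.85.

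The regulators and the smaller members of the pathway lay higher as well. Nr5a1 had 2.88 at 4 weeks and -3.58 at 2 weeks, with -3.24 to -2.58 in the kidneys. Nr0b1 had -0.85 at 4 weeks and was at least 40.4-fold higher than at 2 weeks, where it was not well above background. Mc2r, the receptor for corticotropin, was 36.5-fold higher, and its accessory protein Mrap, which fat also expresses, 4.18-fold. The electron carriers of the mitochondrial steps, Fdxr and Fdx1, were 14.8-fold and 6.32-fold higher, and the lipoprotein receptor Scarb1 was 4.87-fold higher. Soat1, which esterifies cholesterol, differed by 0.53.

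The genes of single adrenal zones were not alike. Cyp11b1, which makes corticosterone in the middle zone, had 5.01 at 4 weeks and was not well above background on any other array, an at least 2346-fold difference. Cyp11b2, which makes aldosterone in the outer zone, had -3.99 at 4 weeks, an at least 4.59-fold difference. Akr1c18, which breaks down progesterone and marks the inner zone of the mouse adrenal, had 6.44 at 4 weeks and -3.39 at 2 weeks. It was not well above background in the E13.5 kidney but had -4.03 and 2.38 in the P0 and 8-week kidneys. Hsd3b6 was at least 289-fold, Srd5a2 at least 32.2-fold, the reductase Akr1b7 34.5-fold and Pik3c2g 2.79-fold higher. Agtr1b, the angiotensin receptor of the outer zone, and Rspo3, a signal of the adrenal capsule, differed by -0.23 and -0.66, and Wnt4 by 0.96. In all, 7 of 10 zone genes passed 2-fold, each of them higher at 4 weeks. The median of 3.60 became 1.22 over genes above background on both arrays and 2.14 with normexp background correction. Genes near the top of the whole comparison that stood in no list included Mgarp, a mitochondrial protein, at 4.88 at 4 weeks and -4.46 at 2 weeks. Abcb1b, a drug efflux pump, was 48.9-fold higher and Frmd5 47.4-fold.

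Steroid cells of the gonads share much of this pathway, so their own markers were read beside it. Of 5 compared, Inha was 2.16-fold higher, the Leydig cell receptor Lhcgr at least 3.16-fold lower, and Dmrt1 differed by -0.35. The probes of Foxl2 and of Cyp17a1, the enzyme that mouse gonads use and the mouse adrenal largely lacks, had levels between 3.77 and 4.63 and between 2.32 and 2.86 on all 5 arrays. Signals this even over transplants and kidneys cannot tell gonadal from adrenal cells, and whether these probes read their genes was not tested. Markers of chromaffin and sympathetic cells, which fill the adrenal medulla and the sympathetic ganglia, lay higher in 8 of 12 cases (median 1.64). Chga, a protein of secretory granules, had 0.49 at 4 weeks and -4.02 at 2 weeks. Dbh, which makes noradrenaline, had 1.42 at 4 weeks and -0.97 at 2 weeks. Pnmt, which makes adrenaline, was 3.35-fold higher but dim at -3.88 and -5.62, and Th, the first step of catecholamine synthesis, 2.11-fold. Slc18a1, the vesicle transporter of chromaffin cells, was 2.42-fold lower. The part of either cell type in the results was not tested.

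**Figure D3:**
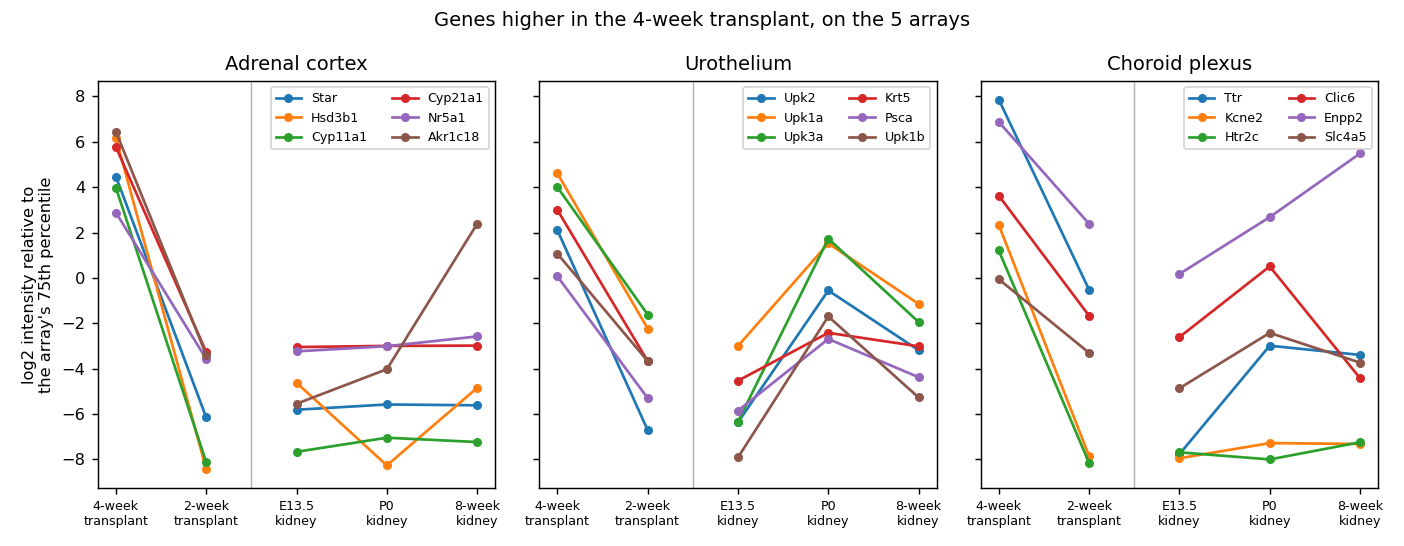
Levels of 18 genes on the 5 arrays, as log2 intensity relative to the array's 75th percentile, in panels for adrenal cortex, urothelium and choroid plexus genes. The points of the 4-week and 2-week transplants are joined, as are those of the 3 kidneys, and points not well above background are drawn at their own value. All 18 genes are higher at 4 than at 2 weeks, and all 6 urothelium genes lie higher in the P0 kidney than in the other 2 kidneys.

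Because the adrenal genes lay higher together, the promoters of the 2 adrenal lists were searched for CAAGGTCA, a half-site read by Nr5a1, on both strands. The sequences are those of RefSeq (GRCm38.p6), from 250 bases before to 50 bases after each gene start. Of the 6 adrenal cortex genes and 7 adrenal zone genes with an entry, 0 held it, against 1.76% of 27025 genes in the table. Star, Cyp21a1, Nr5a1, Mc2r and Cyp11b1 had no entry, while Soat1, Agtr1b and Wnt4, which were within 2-fold, were searched. With so few genes and so rare a motif, a count of 0 cannot set these lists apart from other genes. The shorter core AGGTCA, which lies within it and was searched after that result was seen, was present in 2 of 6 and 2 of 7, against 18.1% of 27025. Among genes at least 4-fold higher, 4 of 328 held CAAGGTCA (1.22%), against 1.48% of 13745 compared, and 85 of 328 held the core (25.9%), against 16.1%. The core was in 3 of 8 urothelium genes (37.5%), 1 of 7 choroid plexus genes (14.3%) and 1 of 10 adipocyte genes. The 4 adrenal list promoters that hold it are printed 5′ to 3′ on the gene's strand to show where it falls, with the core in capitals on either strand. They are Nr0b1 (chrX:86191525-86191824, plus strand), 1 start of Cyp11a1 (chr9:58014702-58015001, plus), Akr1b7 (chr6:34412112-34412411, plus) and Akr1c18 (chr13:4150597-4150896, minus).
Nr0b1: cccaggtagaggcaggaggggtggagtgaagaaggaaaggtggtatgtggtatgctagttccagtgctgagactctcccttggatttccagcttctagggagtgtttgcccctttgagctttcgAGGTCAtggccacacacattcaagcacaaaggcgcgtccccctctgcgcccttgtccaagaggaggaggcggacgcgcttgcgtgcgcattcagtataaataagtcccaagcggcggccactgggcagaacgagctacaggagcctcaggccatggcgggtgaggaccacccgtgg
Cyp11a1: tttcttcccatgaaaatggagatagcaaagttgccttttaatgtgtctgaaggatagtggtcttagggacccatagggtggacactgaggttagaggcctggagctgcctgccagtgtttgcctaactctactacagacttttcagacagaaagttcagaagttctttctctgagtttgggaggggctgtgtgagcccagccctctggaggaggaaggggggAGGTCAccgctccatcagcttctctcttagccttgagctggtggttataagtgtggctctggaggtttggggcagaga
Akr1b7: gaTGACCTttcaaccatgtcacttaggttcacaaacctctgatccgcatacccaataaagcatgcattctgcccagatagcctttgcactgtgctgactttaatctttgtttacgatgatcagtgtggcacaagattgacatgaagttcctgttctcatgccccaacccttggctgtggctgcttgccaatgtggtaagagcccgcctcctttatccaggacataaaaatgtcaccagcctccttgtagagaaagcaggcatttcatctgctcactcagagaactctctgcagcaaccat
Akr1c18: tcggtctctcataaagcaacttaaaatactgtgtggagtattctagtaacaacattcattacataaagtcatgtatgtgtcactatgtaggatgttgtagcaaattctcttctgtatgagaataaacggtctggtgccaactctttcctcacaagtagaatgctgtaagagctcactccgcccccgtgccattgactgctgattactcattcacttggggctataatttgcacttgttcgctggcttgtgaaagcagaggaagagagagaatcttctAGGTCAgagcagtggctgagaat
A match is a description of these letters, and a window without one says only that they are not in it. No binding was measured, and whether Nr5a1 or another protein reads the core in these genes was not tested.

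Urothelium, the lining of the renal pelvis, ureter and bladder, is known by the uroplakins, which form plaques on its surface, and by keratins of its basal cells. Of the 12 genes of this list, 11 were at least 4-fold higher at 4 weeks, 0 were lower, and the median difference was 4.44. Upk1a had 4.61 at 4 weeks and -2.23 at 2 weeks, with -3.0, 1.52 and -1.15 in the E13.5, P0 and 8-week kidneys. Upk3a had 4.00 at 4 weeks and -1.61 at 2 weeks, and 1.73 in the P0 kidney. Both uroplakins were thus higher at 4 weeks than on any kidney array. Upk2 had 2.10 at 4 weeks, at least 313-fold more than at 2 weeks, and Upk1b was 26.7-fold higher.

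The basal keratins Krt5 and Krt14 were 101-fold and 17.6-fold higher, and the superficial keratin Krt20 7.31-fold. The regulators Grhl3 and Foxa1 were 17.1-fold and 12.9-fold higher, and the surface protein Psca 41.3-fold. Krt13 was 4.58-fold higher. The probe used for Trp63, a regulator of basal cells, had levels of 0.88 to 1.96 on all 5 arrays and differed by 0.07, but a second probe of the gene differed by 3.17. Genes shared with squamous epithelium were uneven, with 4 of 7 compared at least 2-fold higher and 1 lower. Sprr1a, a protein of the cornified envelope, was 143-fold higher, Krt15 60.9-fold and Ivl at least 13.1-fold, whereas the epidermal keratins Krt1 and Krt10 differed by 0.06 and -0.54 and Lor was 2.01-fold lower. Outside the lists, Ly6d had 3.68 at 4 weeks and -3.92 at 2 weeks, and Serpinb5 was at least 42.9-fold higher. Of 30 keratin genes compared, 11 were at least 2-fold higher and 0 lower.

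Choroid plexus, the epithelium that secretes cerebrospinal fluid, was the third tissue whose markers stood far apart. At 4 weeks 10 of its 12 list genes lay 2-fold or more above their 2-week level and 0 below it, with a median difference of 3.36. Ttr, the thyroxine carrier made by choroid plexus and liver, had 7.86 at 4 weeks and -0.52 at 2 weeks, with -7.77, -2.99 and -3.40 in the E13.5, P0 and 8-week kidneys. Kcne2, a potassium channel subunit, had 2.34 at 4 weeks and Htr2c, a serotonin receptor, 1.21, and neither was well above background on any other array. They were at least 368-fold and 168-fold higher, and the mean over the probes of Htr2c differed by 2.87. The channel-related Clic6 was 39.3-fold and the bicarbonate transporter Slc4a5 9.48-fold higher.

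Several members of this list also work in the kidney. Enpp2 had 6.88 at 4 weeks, 2.38 at 2 weeks and 5.49 in the 8-week kidney, and Kl, the coreceptor of Fgf23, had 1.60, -1.89 and 4.05 on these arrays. Prlr was 7.38-fold, Folr1 5.33-fold and Sostdc1 3.40-fold higher. Aqp1, the water channel of choroid plexus and proximal tubule, differed by 0.65, and Otx2, a regulator of choroid plexus, by 0.97 at the dim levels of -4.06 and -5.03. Kcnj13, a channel of the same epithelium in no list here, had 2.71 at 4 weeks and -2.99 at 2 weeks. Of 6 liver markers compared, 0 were at least 2-fold higher and Fgb, a chain of fibrinogen, was 3.69-fold lower, with Ahsg at -3.06 and -3.34 and Serpina1a at -0.13 and 0.11. The ciliated cell regulator Foxj1, named after its value was seen, had -1.16 at 4 weeks and -3.01 at 2 weeks. Gut and pancreas genes were mixed, with Cela1 7.50-fold, Ins2 7.12-fold and Fabp2 5.13-fold higher, Ctrb1 at a difference of 0.10 and Vil1 2.39-fold lower.

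Adipocyte genes, already bright at 2 weeks, were higher again at 4 weeks and by a narrow range. All 13 differed by 0.93 to 2.72, and 11 were at least 2-fold higher (median 1.54). Their summed intensity was 1007410 at 4 weeks and 438848 at 2 weeks, against 11428 to 69959 in the kidneys. Adipoq, a hormone of fat, had 5.36 at 4 weeks and 3.89 at 2 weeks. The lipid droplet protein Plin4 was 6.61-fold and Cidec 3.94-fold higher, the lipases Pnpla2 and Lipe 3.29-fold and 3.20-fold, and the regulator Pparg 3.37-fold.

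Brown fat, which burns fat for heat, gave a less even picture. Past 2-fold were 8 of 12 genes on the higher side and 1 on the lower (median 1.52). Cidea had 7.0 at 4 weeks and 5.25 at 2 weeks, and the muscle and brown fat respiratory subunits Cox8b and Cox7a1 were 3.04-fold and 2.98-fold higher. Fabp3, which heart and kidney also express, was 16.9-fold and the adrenergic receptor Adrb3, shared with white fat, 5.74-fold higher. Ucp1, the protein that gives brown fat its heat, had 4.73 at 4 weeks and 4.20 at 2 weeks, a difference of 0.53. Dio2 and Ppargc1a differed by 0.13 and 0.08, and Zic1, a developmental marker of brown fat, was 2.91-fold lower.

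Lipid and energy genes lay higher as broad groups. In fatty acid and triglyceride synthesis 13 of 14 genes passed 2-fold, all higher (median 1.69), with Acly, Fasn and Acaca, which make fatty acids, 3.84-fold, 3.74-fold and 3.28-fold higher and Dgat2, which makes triglyceride, 3.94-fold. The regulator Mlxipl had 2.50 at 4 weeks and 0.09 at 2 weeks, and Srebf1 was 2.84-fold higher. In cholesterol synthesis and uptake it was 13 of 16, again all higher (median 1.56). Fdps had 4.66 at 4 weeks and 1.49 at 2 weeks, while its kidney levels were 3.54, 2.59 and 1.02 at E13.5, P0 and 8 weeks. Dhcr7 was 5.90-fold, Idi1 5.15-fold and Msmo1 4.39-fold higher. Srebf2, the main regulator of this pathway, differed by -0.18. At 2 weeks Lss, which closes the sterol rings, lay below all 3 kidneys at -2.64.

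Genes of fatty acid oxidation were at least 2-fold higher in 8 of 15 cases and lower in 0 (median 1.00). The receptor Ppara had 2.65 at 4 weeks and 0.29 at 2 weeks, and the matrix enzymes Hadhb, Acaa2 and Acadvl were 3.06-fold, 2.73-fold and 2.48-fold higher. The kidney enzyme of fatty acid hydroxylation, Cyp4a10, differed by -0.16. The 12 respiratory chain genes were all higher, by 0.59 to 0.99 and none by 2-fold, with Sdha at 0.99, Ndufv1 at 0.98, Cox4i1 at 0.82 and Atp5b at 0.59. Under the 11 alternatives their median lay between 0.70 and 0.89. Ribosomal protein genes, which serve every cell, had medians of 0.13 (49 Rpl genes) and 0.11 (29 Rps genes). The adipocyte and adrenal lists, cells rich in the same functions, were higher too, with 11 of 13 and 11 of 12 genes past 2-fold, and their part in these groups was not tested.

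**Figure D4:**
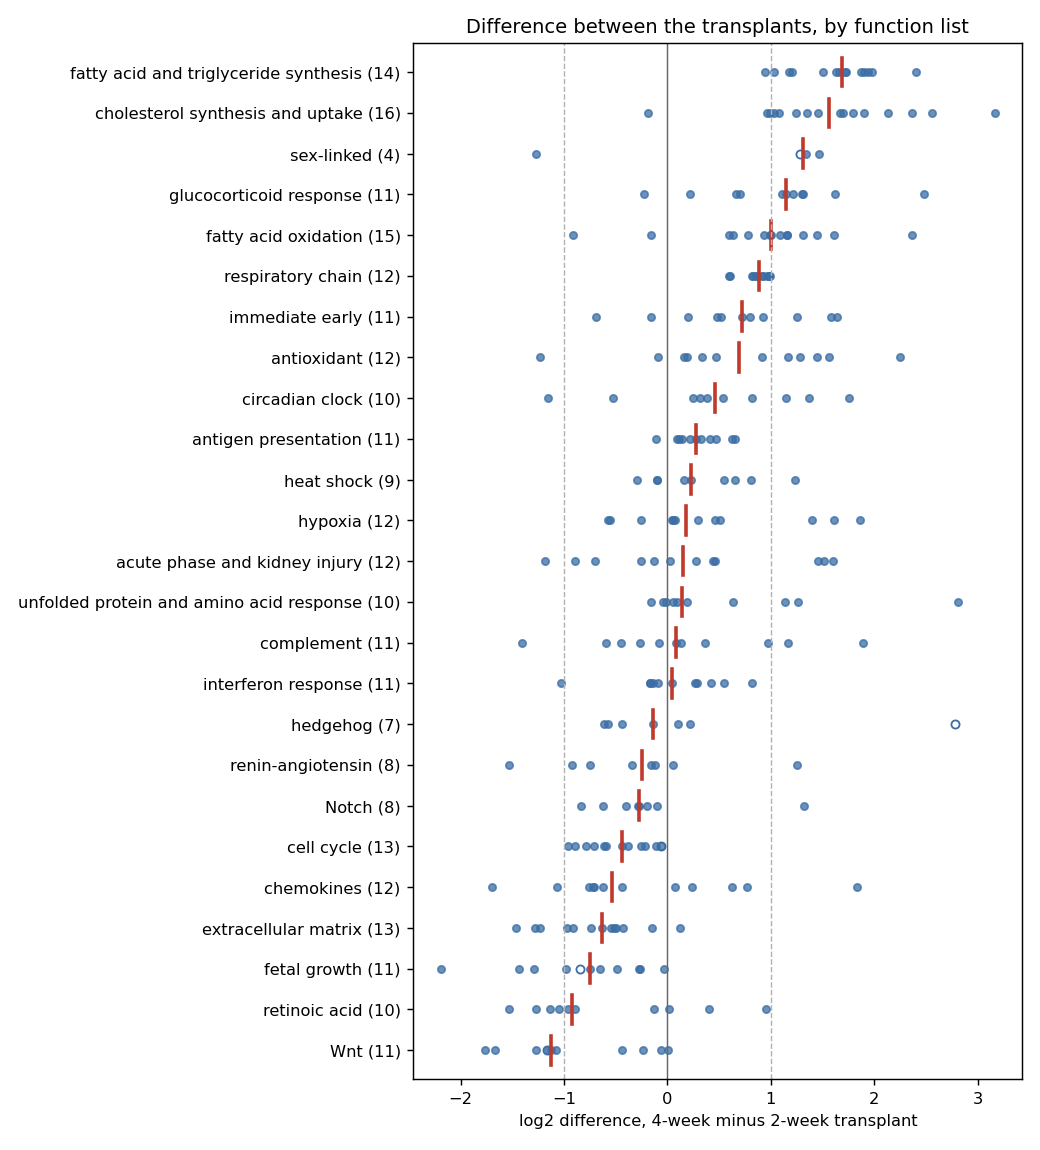
Each row is 1 function list with the number of genes compared in brackets, each point is 1 gene's log2 difference, 4 weeks minus 2 weeks, open points are bounds, the red bar is the median and dashed lines mark 2-fold. Fatty acid and triglyceride synthesis (median 1.69) and cholesterol synthesis (1.56) stand at the top, the respiratory chain is tightly grouped from 0.59 to 0.99, and the Wnt list stands lowest at -1.12.

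Genes that glucocorticoid hormones are known to raise were at least 2-fold higher in 7 of 11 cases and lower in 0 (median 1.15). Pdk4, which restrains glucose oxidation and also follows fasting and fat use, had 3.73 at 4 weeks and 1.25 at 2 weeks. Errfi1 was 3.07-fold, Zbtb16 2.49-fold, the kinase Sgk1 2.47-fold, the metallothioneins Mt1 and Mt2 2.32-fold and 2.21-fold and Fkbp5 2.15-fold higher. Tsc22d3, another common target, differed by 0.22, and the receptor Nr3c1 by -0.23. Hsd11b1, which regenerates active glucocorticoid, had 1.13 at 4 weeks and -1.40 at 2 weeks, and Hsd11b2, which inactivates it in collecting duct, differed by -0.74. Renin, encoded by Ren1, had -1.42 at 4 weeks and 0.11 at 2 weeks, a 2.89-fold lower level, while the converting enzyme Ace was 2.38-fold higher. The other 6 genes of the renin-angiotensin list were within 2-fold. Steroid hormones were not measured.

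Nephron genes lay lower at 4 weeks in every segment by median, and the segments differed in which members moved. In the proximal tubule, which reabsorbs most of the filtrate, 10 of 22 genes were at least 2-fold lower and 0 higher (median -0.70). Slc5a2, the glucose transporter of its first part, had -2.69 at 4 weeks and 0.44 at 2 weeks, against 1.13 in the P0 and 5.78 in the 8-week kidney. Slc34a1, the phosphate transporter, had -2.22 at 4 weeks and 0.48 at 2 weeks, and Slc7a9, a cystine transporter subunit, was 4.83-fold lower. These 3 levels at 4 weeks lay further from the P0 and 8-week kidneys than those at 2 weeks.

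The other members were spread on both sides of 2-fold. Miox, which breaks down inositol, was 4.26-fold and the regulator Hnf4a 2.31-fold lower, but the endocytic receptors Lrp2 and Cubn differed by -0.60 and -0.40. Kap, an androgen-regulated kidney protein, and Slc27a2, which takes up fatty acids, differed by 0.09 and 0.94. Genes of proximal tubule outside the list also stood among the largest differences. Ugt2b5, Ugt2b37 and Ugt2b38, conjugating enzymes that share much sequence and may share signal, were 9.35-fold, 9.05-fold and 9.26-fold lower, and the glucose transporter Slc2a2 at least 8.95-fold lower. Cyp24a1, which inactivates vitamin D, was at least 7.31-fold lower, Spp2 23.1-fold, Aadac 8.54-fold and Prodh2 7.67-fold.

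The later segments followed with different members. In the distal tubule 6 of 10 genes were at least 2-fold lower and 0 higher (median -1.14), with the thiazide-sensitive transporter Slc12a3 3.76-fold and the calcium-binding S100g 4.24-fold lower. Calb1 was 7.21-fold lower by 1 probe and differed by -0.75 by another. In the loop of Henle 3 of 10 were higher and 3 lower (median -0.81). Umod had 1.91 at 4 weeks and 0.71 at 2 weeks, a 2.29-fold higher level, whereas the salt transporter Slc12a1 of the same cells had -4.44 and -2.78, 3.14-fold lower.

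Among collecting duct principal cells the water channel Aqp2 had -1.69 at 4 weeks and 0.74 at 2 weeks, 5.38-fold lower, and Aqp3 differed by 0.75. Of the 10 genes, 2 were lower and 1, Kcne1, higher (median -0.77). The second lower one, Aqp4, was 15.4-fold lower, and astrocytes express it too. Of 11 intercalated cell genes, which handle acid and base, 3 were lower and 0 higher (median -0.77). The pump subunit Atp6v1b1 was 4.64-fold lower, while Foxi1, the regulator of these cells, and the chloride exchanger Slc26a4 differed by 0.01 and -0.03. Podocyte genes, which form the glomerular filter, had a median of -0.70, the same as the proximal tubule list, but only 1 of 13 was past 2-fold. Nphs1 differed by -0.83 and Wt1 by -0.99, and the basement membrane collagens Col4a3 and Col4a4 by -0.49 and -0.14.

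**Figure D5:**
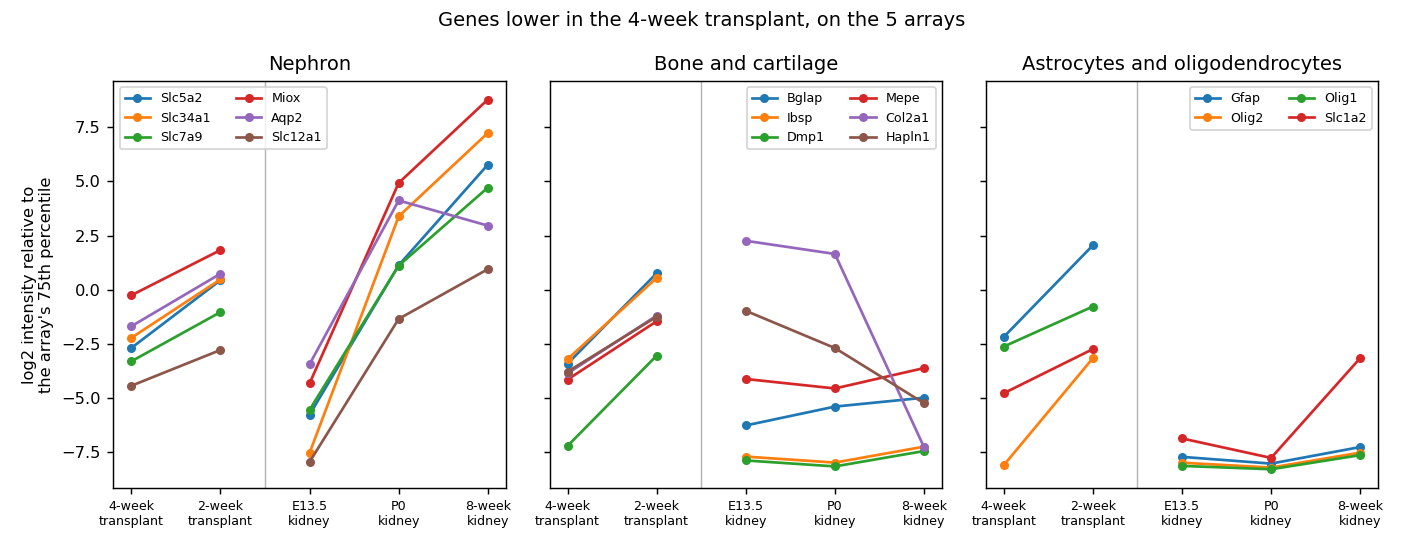
Levels of 16 genes on the 5 arrays, as log2 intensity relative to the array's 75th percentile, in panels for nephron, bone and cartilage, and astrocyte and oligodendrocyte genes, with the transplants joined and the 3 kidneys joined. All 16 are lower at 4 than at 2 weeks. All 6 nephron genes are higher in the P0 and 8-week than in the E13.5 kidney, while Gfap, Ibsp, Dmp1, Olig1 and Olig2 are well above background at 2 weeks and in no kidney.

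Markers of the early kidney were lower at 4 weeks or close to their 2-week level. Of 12 nephron progenitor genes 5 were at least 2-fold lower and 0 higher (median -0.72). Six2, which keeps progenitors undifferentiated, had 0.38 at 4 weeks and 2.14 at 2 weeks, against 4.68 in the E13.5 kidney. Osr1 was 3.37-fold and Cited1 2.06-fold lower, and Gdnf, which calls the ureteric bud to branch, was dim at -4.66 and -4.63, against 2.69 in the E13.5 kidney. Of 10 ureteric bud tip genes 3 were lower and 0 higher (median -0.51), with Gfra1, the coreceptor of Gdnf, at least 4.14-fold lower and Ret differing by 0.90. Fetal renal stroma had 5 of 10 lower (median -0.88), with Tbx18 3.94-fold and Foxd1 3.93-fold lower and Meis1 differing by -0.14.

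Fetal growth genes were lower in 3 of 11 cases (median -0.75). H19, an imprinted RNA, had 2.87 at 4 weeks and 5.06 at 2 weeks, and its neighbour Igf2 -0.88 and 0.55. All 13 cell cycle genes differed by -0.96 to -0.06, none by 2-fold. Mki67 had 0.57 at 4 weeks and 0.83 at 2 weeks, between the E13.5 (3.42) and 8-week (-2.90) kidneys.

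Bone and cartilage genes were among the lowest lists. Of 10 bone genes, 5 were at least 2-fold lower and 0 higher (median -1.29, and -2.21 in the authors' deposited table). Over the 11 alternatives the bone median lay between -2.21 and -1.07. Bglap, osteocalcin of bone matrix, had -3.42 at 4 weeks and 0.76 at 2 weeks. Its near copies Bglap2 and Bglap3 were 16.8-fold and 15-fold lower, and the 3 may share signal. The means over the probes of Bglap and Bglap3 differed by -2.77 and -1.58. Ibsp, another matrix protein, had -3.21 at 4 weeks and 0.55 at 2 weeks. Dmp1 and Mepe, made by osteocytes, were at least 7.72-fold and 6.48-fold lower. The regulator Runx2 differed by -0.36, within 2-fold. Cartilage had 7 of 10 lower and 0 higher (median -1.29), led by Col2a1 (6.38-fold) and the link protein Hapln1 (5.82-fold), while Comp differed by -0.11. Its median lay between -1.47 and -0.66 over the same alternatives. Of 8 osteoclast genes, Ctsk and Mmp9 were 3.33-fold and 3.38-fold lower and Acp5 differed by 0.23.

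Glial and neuronal genes differed in direction by median. Gfap, the filament of astrocytes, had -2.18 at 4 weeks and 2.05 at 2 weeks. Olig2, a regulator of oligodendrocytes, had -3.16 at 2 weeks and was not well above background on any other array, at least 7.12-fold lower at 4 weeks. Olig1 was 3.61-fold, the glutamate transporter Slc1a2 4.11-fold and the myelin protein Mag 2.43-fold lower, which with Gfap, Olig2 and Ptgds made 6 of 12, against 1 higher, Aldh1l1. Gpr17, a receptor of oligodendrocyte precursors, had -4.23 at 4 weeks and 0.82 at 2 weeks, a difference of -5.05, the lowest among genes on both arrays that carry a gene name. Sox3 was at least 7.69-fold lower and Scrg1 13.1-fold. Sox10, shared by oligodendrocytes and Schwann cells, was 5.38-fold lower. It was the 1 lower gene of 9 in the Schwann cell list, where 2 were higher (median -0.12). Of 11 neuronal genes 4 passed 2-fold, all higher (median 0.67), with Prph, a filament of peripheral neurons, 3.81-fold higher and Snap25 2.01-fold.

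Immune genes divided by cell type. Of 11 neutrophil genes 6 passed 2-fold, all higher (median 1.14). S100a9 had 5.10 at 4 weeks and 2.66 at 2 weeks, Retnlg was 8.89-fold and the chemokine receptor Cxcr2 4.05-fold higher, and the granule genes Mpo, Elane and Camp, made by immature neutrophils in the marrow, differed by -0.36 to -0.16. Ligands of Cxcr2 differed in direction. Cxcl1 was 3.56-fold higher, and Cxcl2 had -2.79 at 4 weeks and -5.73 at 2 weeks. Cxcl3 was at least 5.69-fold higher, whereas Cxcl5 was 2.62-fold lower. Il1b had 0.81 at 4 weeks and -1.73 at 2 weeks. Cxcl2, Cxcl3, Cxcl5 and Il1b stood in no list and were named after their values were seen.

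Macrophage genes lay on the other side, with a median of -0.61. The scavenger receptor Marco was 5.51-fold and lysozyme, Lyz2, 2.21-fold lower, 1 gene of 12, Itgam, which neutrophils share, was 2.01-fold higher, and Csf1r and Adgre1 differed by -0.56 and -0.85. Of 12 T and NK cell genes 1, Gzmb, was past 2-fold (2.19-fold higher), and of 6 mast cell genes 1, Tpsab1, at least 9.12-fold higher. Inflammatory programmes did not move as wholes. All 11 antigen presentation genes were within 2-fold (-0.11 to 0.65), as were 10 of 11 interferon response genes, with Ifit3 2.03-fold lower. Complement C3 was 3.70-fold and Hp, haptoglobin, 3.03-fold higher, while Cfi was 2.65-fold and Saa3 2.27-fold lower. Havcr1, a marker of tubule injury, was dim at -5.48 and -5.34.

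Vessel and smooth muscle genes lay close together at the 2 times. None of 12 endothelial genes passed 2-fold (median -0.41, from -0.71 to 0.20), with Pecam1 at -1.18 and -0.83 and Cdh5 at 1.31 and 1.71. None of 10 smooth muscle genes did either (median -0.17). Of 13 matrix genes 3 were lower and 0 higher (median -0.63): Postn (2.75-fold), the crosslinking enzyme Lox (2.44-fold) and Fn1 (2.35-fold), while Col1a1 and Col3a1 differed by -0.43 and -0.50. Across all 41 collagen genes compared, 13 were lower and 3 higher. The 3 were Col6a4 (0.75 at 4 weeks and -5.84 at 2 weeks), Col17a1 of epithelial attachment (-2.41 and -5.31) and Col9a3 (2.68 apart). In skeletal muscle Myh7, the slow myosin, was 9.92-fold higher while Actn3 and Tnnt3 of fast fibres were 2.61-fold and 2.80-fold lower.

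Signalling lists gave 1 broad difference. In the Wnt list 7 of 11 genes were at least 2-fold lower and 0 higher (median -1.12), among them the secreted inhibitors Sfrp2 (3.40-fold), Wif1 (3.18-fold), Dkk1 (at least 2.25-fold) and Sfrp1 (2.23-fold). Of known targets of the pathway, Sp5, Nkd1 and Lgr5 were 2.42-fold, 2.18-fold and 2.11-fold lower, and Axin2 and Lef1 differed by -0.06 and 0.01. Retinoic acid genes were lower in 4 of 10 cases, with Aldh1a3, which makes the acid, 2.90-fold and the binding protein Crabp2 2.41-fold lower. Shh was at least 6.90-fold higher, and its targets Gli1 and Ptch1 differed by -0.61 and -0.14. Of the Notch list, Notch1 alone passed 2-fold (2.49-fold higher). Red cell genes were higher in 3 of 6 cases, with the heme enzyme Alas2 2.55-fold and the globin Hbb-b1 2.02-fold higher and the receptor Epor 2.05-fold lower.

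Stress and clock genes differed gene by gene. The immediate early genes Nr4a1, which corticotropin is known to induce in adrenal cells, Zfp36 and Junb were 3.12-fold, 3.0-fold and 2.38-fold higher, 3 of 11, with Atf3 at -0.69. Chac1, which degrades glutathione, was 7.0-fold higher, and Asns and Trib3, also targets of Atf4, 2.39-fold and 2.20-fold, while the endoplasmic reticulum chaperone Hspa5 differed by -0.01 and Ddit3 by 0.10. Among clock genes Per2, Ciart and Dbp were 3.39-fold, 2.59-fold and 2.22-fold higher and Arntl, whose rhythm opposes theirs, 2.23-fold lower, and the hour of sampling is not given in the sources used here. In the antioxidant list 5 of 12 genes were higher, led by Gstm1 (4.75-fold), and Hmox1 was 2.35-fold lower. The hypoxia list had 3 of 12 higher, Bnip3 (3.64-fold), Hk2 and Pfkfb3, and Vegfa, Ldha and Car9 were within 2-fold.

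Gene families were also read by symbol. All 11 Mup genes, urinary proteins made by liver and other tissues, were higher by a median of 2.00, but they are near copies whose probes may read each other's RNA. Of 15 aldo-keto reductases 9 were at least 2-fold higher, including Akr1cl (at least 209-fold), and of 20 glutathione transferases 8, with 0 lower. Of 11 Ugt genes 6 were lower. Among 165 olfactory receptor genes compared, of 1101 on the array, 30 were at least 2-fold higher (18.2%) and 12 lower (7.27%). The shares of all genes were 9.09% and 5.68%. Most of the 30 and of the 12 are bounds, and how far closeness to background sets these counts was not tested. Olfr952, at least 22.9-fold lower, was not well above background on the other 4 arrays. The lowest difference of all, -8.01, belonged to the gene model 2310065F04Rik, named after its values were seen, with -5.21 at 4 weeks and 2.80 at 2 weeks, and -5.24, -4.92 and 3.19 in the E13.5, P0 and 8-week kidneys.

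Further genes of the naming rule belonged to no list. Fam25c had 2.22 at 4 weeks and -5.53 at 2 weeks, with -1.42 and 0.14 in the P0 and 8-week kidneys. Cyp2f2, a cytochrome of airway and liver that oxidises foreign compounds, had 4.68 at 4 weeks and -1.49 at 2 weeks, and Adh7, an alcohol and retinol dehydrogenase of epithelia, -0.53 and -5.87. The calcium pump Atp2b3, Tex22 and Prr32 were at least 124-fold, 127-fold and 46.2-fold higher, and each was well above background at 4 weeks alone of the 5 arrays. The mean over the probes of Tex22 differed by 2.63. The cation channel Trpm3 was at least 63.7-fold higher by the probe used and differed by 2.36 by another. Akr1d1, a steroid reductase of liver, was at least 41.4-fold higher and had -2.44 in the 8-week kidney. Cyp2f2 apart, these genes were dim or not detected at 2 weeks, which naming the largest differences and bounds favours by construction.

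On the lower side stood Tgm5, a crosslinking enzyme of epidermis, with -3.69 at 4 weeks and 0.94 at 2 weeks, and -0.02 in the E13.5 kidney. Vxn, a neuronal differentiation factor, had -5.05 at 4 weeks and -0.97 at 2 weeks, and Spock3, a brain proteoglycan, -5.68 and -2.52, and neither was well above background in a kidney. The neural adhesion molecule Cntn6 was 11.2-fold and C1ql3, a secreted synaptic protein, 8.28-fold lower. Lect2, a protein secreted by liver, was 12.9-fold, the carboxypeptidase subunit Cpn1 11.7-fold and the citrate transporter Slc13a5 8.7-fold lower, and Afp, the fetal serum protein, at least 8.13-fold lower. Spink8, a protease inhibitor, stayed bright at 0.76 and 3.72.

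Syt10, a synaptotagmin, had 1.49 at 4 weeks and -5.49 at 2 weeks, against 2.31 to 3.92 in the 3 kidneys, so the 2-week array was the one that stood apart. Mirg had 1.40 at 4 weeks and -3.91 at 2 weeks, with 2.44 to 4.16 in the kidneys, by the probe used, but its probes differed by -0.32 to 5.31.

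Sex-linked RNA differed between the arrays as well. The Y-linked Eif2s3y had 0.71 at 4 weeks and -0.76 at 2 weeks, and Ddx3y -0.06 and -1.40. The X-linked Xist, expressed in female cells, had -2.88 at 4 weeks and -1.60 at 2 weeks. Both transplants thus carried Y-linked and Xist RNA, with Eif2s3y 2.77-fold and Ddx3y 2.53-fold higher and Xist 2.41-fold lower at 4 weeks. Of all 14 Y-linked genes compared, 5 (35.7%) were at least 4-fold higher and 0 lower, against 2.44% and 1.02% of all genes. Among them, named after their values were seen, were Sly, at least 13.3-fold, and Orly, 8.15-fold higher, members of Y-linked gene groups whose copies may share signal. Uba1y differed by -0.15. Sex and graft time cannot be told apart for genes that differ between the sexes, such as the Mup family.

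The kidney arrays place the genes that stood furthest apart. They did not enter the background filter, but they helped choose each gene's probe and which outlier spots were dropped. Of the 451 genes at least 4-fold higher, 26.8% were not well above background in any of the 3 kidneys. Of the 188 at least 4-fold lower, 29.3% were not, against 6.42% of all 18485. However, 145 of the 451 and 55 of the 188 are bounds, whereas 17018 of all 18485 were well above background on both transplant arrays. Genes near background can be missed in the kidneys too, and how far this sets the contrast with 6.42% was not tested. Of the 451, 23.3% were at least 4-fold higher in the 8-week than in the E13.5 kidney and 10.2% lower. Of the 188, 27.1% were higher and 27.1% lower by this measure, against 2503 (higher) and 2556 (lower) of the 18485 genes. These shares are descriptions of 5 arrays with no test.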

How the data were processed

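RNA of 5 C57BL/6 mouse tissues was hybridised to 1 single-colour Agilent array each, per the labels. The deposited scanner files hold each spot's intensity, background-subtracted by Agilent Feature Extraction 10.7.3.1, with flags for signal well above background, per the file headers. The authors also deposited a gene table of log2 values. Although its header speaks of scaling to the 75th percentile, 99.7% of its values were within 0.01 of unscaled log2 intensity (probes averaged, each gene centred on its median), against 18.2% with that scaling.

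For each array, log2 intensity minus log2 of the 75th percentile over non-control spots (1503.9 at 4 weeks, 1713.4 at 2 weeks) was used. The 447 outlier spots were dropped, and 0 were saturated. Spots were averaged per probe, and each gene was read by its brightest probe on average over the arrays. Of 39414 probes, 31781 were named by the gene identifier in the authors' table through RefSeq, 2026 kept the authors' symbol and 5607 stayed unnamed. A side not well above background was raised to the lowest level counted as above background on its array, if it lay under it, and a bound that would turn the direction entered as 0. With 1 array per group, the number of arrays limits the precision.

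The 2 arrays, the 61 lists and the tests were chosen with earlier results of these data known. Of 689 list entries, 686 were on the array, 635 were compared and 3 were unmatched. Genes named are the 25 largest differences each way on both arrays, the 15 largest bounds each way, without gene-model names, and any list member; others are said to be outside the lists. Alternatives were normexp background correction on the median signals (offset 50), quantile normalization, other percentile, median, loess and spike-in scalings, the authors' table, the mean over probes, other background filters and an 8-fold threshold. Spike-in scaling and the AGGTCA search were added after the data were seen. Steps were tested on simulated data. Python 3.11.15, pandas 2.3.3, numpy 2.4.6, R 4.3.3 and limma 3.58.1 were used. Some list members are not reported here.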

Additional observations from a re-analysis of the deposited data

How the results depend on the processing

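The adrenal cortex, urothelium and choroid plexus lists kept positive medians, and the podocyte and proximal tubule lists negative ones, under all 11 alternatives. Of 61 list medians 52 kept their sign. The 9 that turned were close to 0: Schwann cell, gonadal steroid cells, hepatocyte, skeletal muscle, hypoxia, complement, interferon response, acute phase and kidney injury, and the unfolded protein and amino acid response. Normexp background correction lowered the counts to 1045 genes higher and 588 lower at 2-fold and 215 and 60 at 4-fold, and the adrenal cortex and urothelium medians to 4.18 and 3.58. Its offset compresses dim signals by construction. The authors' table, which is not scaled, gave 1718 lower genes at 2-fold and 367 at 4-fold. With no background filter 723 were higher and 332 lower at 4-fold, and with own values in place of bounds 323 were lower. The adrenal zones median ran from 1.22 (above background on both arrays) to 4.74 (no background filter). With the mean over probes, the gene Cyp21a1 differed by 7.25, Krt5 by 5.55, Atp2b3 by 5.86, Gfap by -3.63 and Spock3 by -2.21. At 8-fold 176 were higher and 42 lower. Over genes above background on both arrays the adrenal cortex median was 3.89, since its 3 bounds leave. Dim probes limit what can be read: 145 of the 451 and 55 of the 188 genes at 4-fold are bounds. No paired analysis was possible because each group has 1 array.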
